A study of Mus musculus with 16 samples.

Results

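Lipid droplet proteins and enzymes of lipolysis were examined in the livers of mice with and without methylmalonyl-CoA mutase, the mitochondrial enzyme encoded by Mut (now Mmut) and lost in methylmalonic acidemia. The 10 genes were taken by symbol: the coat proteins Plin2, Plin3, Plin4 and Plin5, the droplet growth proteins Cidea, Cideb and Cidec, the triglyceride lipase Pnpla2 with its inhibitor G0s2, and the droplet biogenesis protein Fitm2. All 10 were found among the 19938 genes measured, each with 1 probe set. Livers came from male mice, 4 months old, and were frozen in liquid nitrogen before RNA was extracted and hybridised, each liver to an array of its own (Affymetrix Mouse Gene 1.0 ST). Heterozygous mice (Mut +/-;TgINS-MCK-Mut) were taken on normal diet without a fast or after a fast of 12 hours. Mutant mice (Mut -/-;TgINS-MCK-Mut) were taken on normal diet without a fast or after 8 to 12 hours of fasting. Each of the 4 groups held 4 mice. Every mouse, heterozygotes included, carried the transgene, in which the muscle creatine kinase promoter drives Mut, so that the mutants lacked the enzyme in liver but not in muscle and no group was wild type. Because the fasts differed in length, genotype and length of fast cannot be told apart in the comparison of fasted mutants with fasted heterozygotes, nor in the comparison of the fasting responses of the genotypes.

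Hepatocytes keep triglyceride in lipid droplets, which bud from the endoplasmic reticulum under a single layer of phospholipid. Perilipins cover the surface and limit or direct the access of lipases, Pnpla2 (adipose triglyceride lipase) takes the initial fatty acid from the triglyceride, and proteins of the CIDE family let droplets exchange and fuse. During a fast the liver takes up fatty acids released from adipose tissue, stores part of them in droplets and oxidises the rest, and several of these genes are known targets of the fatty acid sensor PPAR-alpha.

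All values are log2 RMA values as deposited, so a difference of 1 is a change of 2-fold, and levels are compared between arrays and never between genes. A gene is called where the Benjamini-Hochberg adjusted p of limma's moderated test, over all 19938 genes, was under 0.05. Differences are given ± standard error (SE) with the 95% confidence interval in brackets, and group levels as mean ± SD (n = 4).

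The targeted gene was checked in every array. Mmut averaged 9.82 ± 0.11 in unfasted and 9.89 ± 0.15 in fasted heterozygotes, against 8.04 ± 0.20 and 8.09 ± 0.20 in the mutants, and all 8 mutant arrays lay below all 8 heterozygous arrays. The summed signal of 9 hepatocyte markers, on the log2 scale, lay between 16.17 and 16.47 on the 16 arrays. Single arrays carried transcripts of other tissues. On replicate 1 of the unfasted mutants Cpa1, a pancreatic acinar enzyme, read 12.29 against 6.84 to 7.22 on the other arrays. On replicate 1 of the fasted mutants the brown adipocyte gene Ucp1 read 7.57 (5.96 to 6.22 elsewhere), Adipoq 6.43 (5.60 to 5.81) and Plin1, the perilipin of adipocytes, 8.12 (7.56 to 7.82). The log2 summed signal of 7 adipocyte markers was 11.17 there and 9.80 to 10.05 elsewhere. Adipocytes are rich in several of the droplet genes, so values of the 10 genes in fasted mutants are also given without this array.

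**Figure D1:**
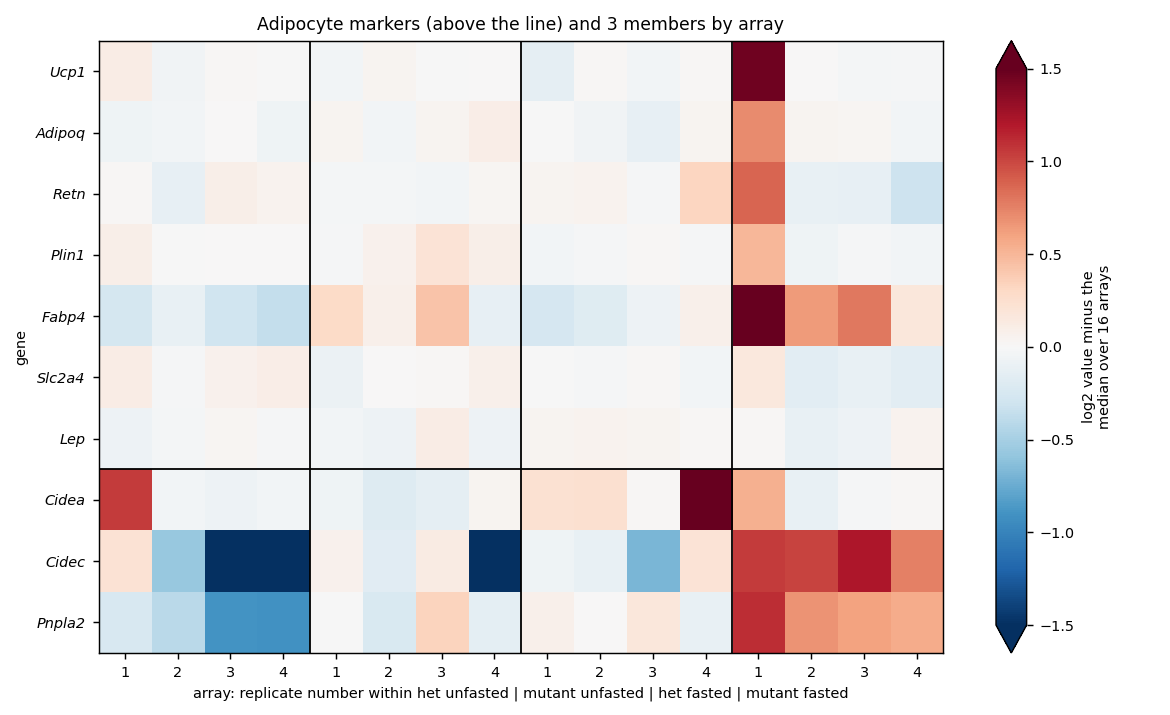
Adipocyte marker genes on the 16 arrays, as log2 value minus the gene's median over the arrays, with colours capped at 1.5 in either direction. Columns run from unfasted heterozygotes through unfasted mutants and fasted heterozygotes to fasted mutants. Replicate 1 of the fasted mutants stands out in Ucp1 (7.57), Fabp4 (10.28), Retn (7.94) and Plin1 (8.12).

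Of the 10 genes, 4 were called in at least 1 comparison: Plin4, Plin5, Pnpla2 and Fitm2. In unfasted livers 1 of the 10 (Pnpla2) was higher in mutants, where 7.94% of all genes were called, 4.25% higher and 3.69% lower. In fasted livers 2 of 10 (Pnpla2 and Fitm2) were higher in mutants, against 13.6% of all genes called, 8.62% higher and 5.01% lower, so that a genotype call was common in that state. Fasting raised 2 of 10 genes in heterozygotes (Plin4 and Plin5), where 1.57% of all genes were called, 0.732% higher and 0.838% lower. It raised 3 of 10 in mutants (Plin5, Pnpla2 and Fitm2), against 3.35% of all genes called, 2.33% higher and 1.02% lower. None of the 10 was called lower in these comparisons, and none was called by limma in the interaction (the difference between the fasting responses of the genotypes), in which 0.01% of all genes (2 genes) passed. At an unadjusted p under 0.05, 1 gene (Plin5, lower) stood in the interaction, where 11.0% of all genes did.

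The median of the 10 differences was 0.28 in unfasted and 0.20 in fasted mutants against heterozygotes, and 0.50 and 0.40 with fasting in heterozygotes and mutants. The median over all genes lay between -0.02 and 0.01 in the same comparisons. Differences above 0 numbered 8, 6, 9 and 9 of the 10. Groups without overlap, with fasted above unfasted, were found for Plin4, Plin5 and Pnpla2 in heterozygotes (5.35% of all genes) and for Plin5, Cidec, Pnpla2 and Fitm2 in mutants (5.49%). Mutants lay above heterozygotes without overlap in Pnpla2 without a fast (6.16%) and in Cidec, Pnpla2 and Fitm2 with one (12.8%). The comparisons share arrays, so their counts are not independent of each other. With only the 8 arrays of a comparison fitted, the calls of Pnpla2 in unfasted genotype (adjusted p = 0.096), of Plin4 in heterozygotes (0.052) and of Plin5 (0.12), Pnpla2 (0.087) and Fitm2 (0.065) with fasting in mutants were lost, while Plin2 (0.032) and Cidec (0.0030) passed in fasted genotype.

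Plin4 and Plin5, which are adjacent genes on chromosome 17, were both called with fasting in heterozygotes, and Pnpla2 and Fitm2 in fasted mutants. The calls do not divide these genes into 2 responses. Plin5 was also called with fasting in mutants, and Pnpla2 rose in heterozygotes without overlap of the groups (adjusted p = 0.060). No interaction was called for any of them. The stretches around the transcription starts of these 4 called genes are shown here. Each is the RefSeq window of the GRCm38.p6 build from 250 bases before the start to 50 after it, written 5′ to 3′ on the gene's strand. Capitals mark matches, on either strand, to any of 5 motifs: the half-site AGGTCA of nuclear receptors such as PPAR-alpha, the box CCAAT that promoters often hold, the motif GTAAACA of forkhead factors, the E-box CACGTG of helix-loop-helix factors, and the box GGGCGG of Sp factors (GC box). Plin5 (first of its 2 starts) lies at chr17:56117499-56117798 on the minus strand, Plin4 at chr17:56109733-56110032 (minus), Pnpla2 at chr7:141454938-141455237 (plus) and Fitm2 at chr2:163472580-163472879 (minus).
Plin5: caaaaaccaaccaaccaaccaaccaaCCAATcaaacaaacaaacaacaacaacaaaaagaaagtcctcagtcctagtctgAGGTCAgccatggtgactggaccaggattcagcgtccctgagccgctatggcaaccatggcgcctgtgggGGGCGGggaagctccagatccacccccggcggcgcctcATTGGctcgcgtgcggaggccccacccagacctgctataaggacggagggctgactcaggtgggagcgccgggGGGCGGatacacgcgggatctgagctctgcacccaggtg
Plin4: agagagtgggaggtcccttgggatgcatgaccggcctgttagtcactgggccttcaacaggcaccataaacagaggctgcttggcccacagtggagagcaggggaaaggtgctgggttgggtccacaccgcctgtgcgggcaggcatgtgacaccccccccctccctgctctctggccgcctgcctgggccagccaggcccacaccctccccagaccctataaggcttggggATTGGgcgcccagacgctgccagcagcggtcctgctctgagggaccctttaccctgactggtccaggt
Pnpla2: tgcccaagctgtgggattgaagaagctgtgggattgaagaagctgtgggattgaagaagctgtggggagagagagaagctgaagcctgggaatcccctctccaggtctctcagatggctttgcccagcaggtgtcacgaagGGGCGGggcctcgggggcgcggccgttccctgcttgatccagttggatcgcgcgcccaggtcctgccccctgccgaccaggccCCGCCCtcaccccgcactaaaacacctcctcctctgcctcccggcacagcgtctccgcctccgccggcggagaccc
Fitm2: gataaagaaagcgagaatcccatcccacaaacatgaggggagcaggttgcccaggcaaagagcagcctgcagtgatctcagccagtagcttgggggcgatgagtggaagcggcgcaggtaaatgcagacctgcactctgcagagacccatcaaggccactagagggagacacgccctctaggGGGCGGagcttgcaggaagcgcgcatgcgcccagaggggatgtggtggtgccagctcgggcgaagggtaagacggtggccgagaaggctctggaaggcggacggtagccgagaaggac

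Among these windows, AGGTCA occurred in that of Plin5, 170 bases before the start, and it occurs in 16.3% of the 32851 windows of the same length. Plin5 also had 2 CCAAT matches (at least 1 in 37.4% of windows) and 2 GC boxes (35.7%). Plin4, its neighbour, held a single CCAAT match and no GC box. Pnpla2 held 2 GC boxes and Fitm2 held 1, with no other match. Of the windows not shown, AGGTCA occurred in that of Plin2, a gene without a call (218 bases before the start), and in that of the other Plin5 start. No match to GTAAACA (3.65% of windows) or to the spaced direct repeat AGGTCANAGGTCA (0.0396%) was present in the 11 windows found for 9 of the 10 genes (all but Cidea). The windows of Plin5, Pnpla2 and Fitm2 held 16, 18 and 16 CpG dinucleotides, against 7 in that of Plin4 and a median of 7 over all windows. A match is a run of letters and says nothing about binding in these livers.

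Plin5, which holds droplets next to mitochondria and is abundant in tissues that oxidise fat, rose with fasting in both genotypes. The unfasted heterozygotes read 9.48, 9.48, 9.17 and 9.16 (9.32 ± 0.18), and the fasted heterozygotes 10.39, 10.58, 10.37 and 10.29 (10.41 ± 0.12). All 4 fasted arrays lay well above all 4 unfasted arrays. The rise was 1.09 ± 0.13 [0.80, 1.37], or 2.12-fold (adjusted p = 0.00086), and it stayed called with any 1 of the 16 arrays left out (largest adjusted p = 0.0053). Unfasted mutants read 10.10, 9.68, 9.51 and 9.35 (9.66 ± 0.33) and fasted mutants 10.34, 10.47, 10.27 and 10.16 (10.31 ± 0.13), again without overlap. Here the rise was 0.65 ± 0.13 [0.37, 0.94], or 1.57-fold (adjusted p = 0.018). It was 0.64 ± 0.15 (adjusted p = 0.033) without the array with adipocyte transcripts. Without both replicates 1 of the mutants, those with acinar and adipocyte transcripts, it was 0.79 ± 0.12 (adjusted p = 0.0054), and without replicate 2 of the fasted mutants it lost the call (adjusted p = 0.064).

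After the fast, Plin5 in mutants minus heterozygotes came to -0.10 ± 0.13 [-0.39, 0.19] (adjusted p = 0.64), and -0.11 without the array with adipocyte transcripts. Unfasted mutants stood 0.34 ± 0.13 [0.05, 0.62] above unfasted heterozygotes without passing the test (adjusted p = 0.15), and replicate 1, the highest, is the array with acinar transcripts. Without it the difference was 0.19 ± 0.11 (adjusted p = 0.314). The difference between the 2 fasting responses, -0.44 ± 0.19 [-0.84, -0.03], had an unadjusted p of 0.037 and an adjusted p of 0.44. It was -0.29 (adjusted p = 0.308) without the array with acinar transcripts. Plin5 therefore ordered its group means as unfasted heterozygotes, unfasted mutants, fasted mutants, fasted heterozygotes, and the upper pair of groups overlapped, as did the lower pair.

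Plin4, a coat protein that moves on and off droplets and is best known from adipocytes, had the same order of group means. It read 9.17, 9.11, 8.23 and 8.22 in unfasted heterozygotes (8.68 ± 0.53) and 9.86, 9.91, 9.30 and 9.80 in fasted ones (9.72 ± 0.28). The groups did not overlap, but the unfasted group fell into a higher and a lower pair of arrays. The rise of 1.03 ± 0.23 [0.54, 1.52], or 2.05-fold, was called (adjusted p = 0.034). The call was lost without replicate 3 (adjusted p = 0.11) or 4 (0.12) of the unfasted heterozygotes, and without replicate 1 (0.098), 2 (0.11) or 4 (0.094) of the fasted ones. Mutants read 9.23, 9.12, 9.49 and 8.87 unfasted (9.18 ± 0.26) and 9.60, 9.78, 10.03 and 9.22 fasted (9.66 ± 0.34), with overlap. Their fasting difference of 0.48 ± 0.23 [-0.01, 0.97] did not pass (adjusted p = 0.23). The genotype differences did not pass either, at 0.50 ± 0.23 [0.01, 0.99] unfasted (adjusted p = 0.22) and -0.06 ± 0.23 [-0.55, 0.43] fasted (0.89). Without the array with adipocyte transcripts, the fasted genotype difference was -0.04 (0.938) and the fasting difference in mutants 0.50 (0.266).

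Plin2, the main perilipin of hepatocyte droplets and often used as a gauge of droplet load, was not called in any comparison. Its highest group was that of the fasted mutants, at 13.06, 13.02, 12.87 and 12.65 (12.90 ± 0.18), against 12.67, 12.57, 12.42 and 12.59 (12.56 ± 0.10) in fasted heterozygotes. The difference between them was 0.34 ± 0.11 [0.10, 0.58], or 1.27-fold, with an adjusted p of 0.059, and the groups overlapped through a single array on each side. Without the array with adipocyte transcripts, the highest of the fasted mutants, it was 0.29 ± 0.12 (adjusted p = 0.145), and without both replicates 1 of the mutants the adjusted p was 0.063. Unfasted mutants spread over 12.92, 12.64, 12.46 and 12.28 (12.58 ± 0.27), wider than the unfasted heterozygotes (12.29 to 12.47, 12.40 ± 0.07). The highest of these mutants was again the array with acinar transcripts, and without it the fasting difference in mutants, 0.32 ± 0.11 (adjusted p = 0.12), became 0.44 with an adjusted p of 0.018. It was 0.27 (0.204) when the array with adipocyte transcripts was left out instead. Without both of these arrays the fasting difference in mutants was 0.39 ± 0.10 and passed (adjusted p = 0.030). Fasting in heterozygotes gave 0.16 ± 0.11 (adjusted p = 0.66). The fasted genotype difference passed without replicate 1 (0.023) or 4 (0.033) of the unfasted mutants or replicate 4 of the fasted ones (0.027), and its adjusted p reached 0.157 without replicate 2 of the fasted mutants.

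Plin3, a coat protein of small new droplets found in most cells, was not called either. Its lowest and highest readings were 9.24 and 9.57 over the 8 heterozygous arrays, fasted or not, and the fasting difference in heterozygotes was 0.00 ± 0.13 [-0.28, 0.29]. In mutants it read 9.38 to 9.83 unfasted (9.60 ± 0.20) and 9.75, 10.04, 10.05 and 9.38 fasted (9.80 ± 0.32). The fasted genotype difference was 0.36 ± 0.13 [0.08, 0.65] (adjusted p = 0.084), and without replicate 4 of the fasted mutants, the low array, it passed (adjusted p = 0.012). Without the array with adipocyte transcripts it was 0.38 (0.117), and the fasting difference in mutants 0.22 (0.391).

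**Figure D2:**
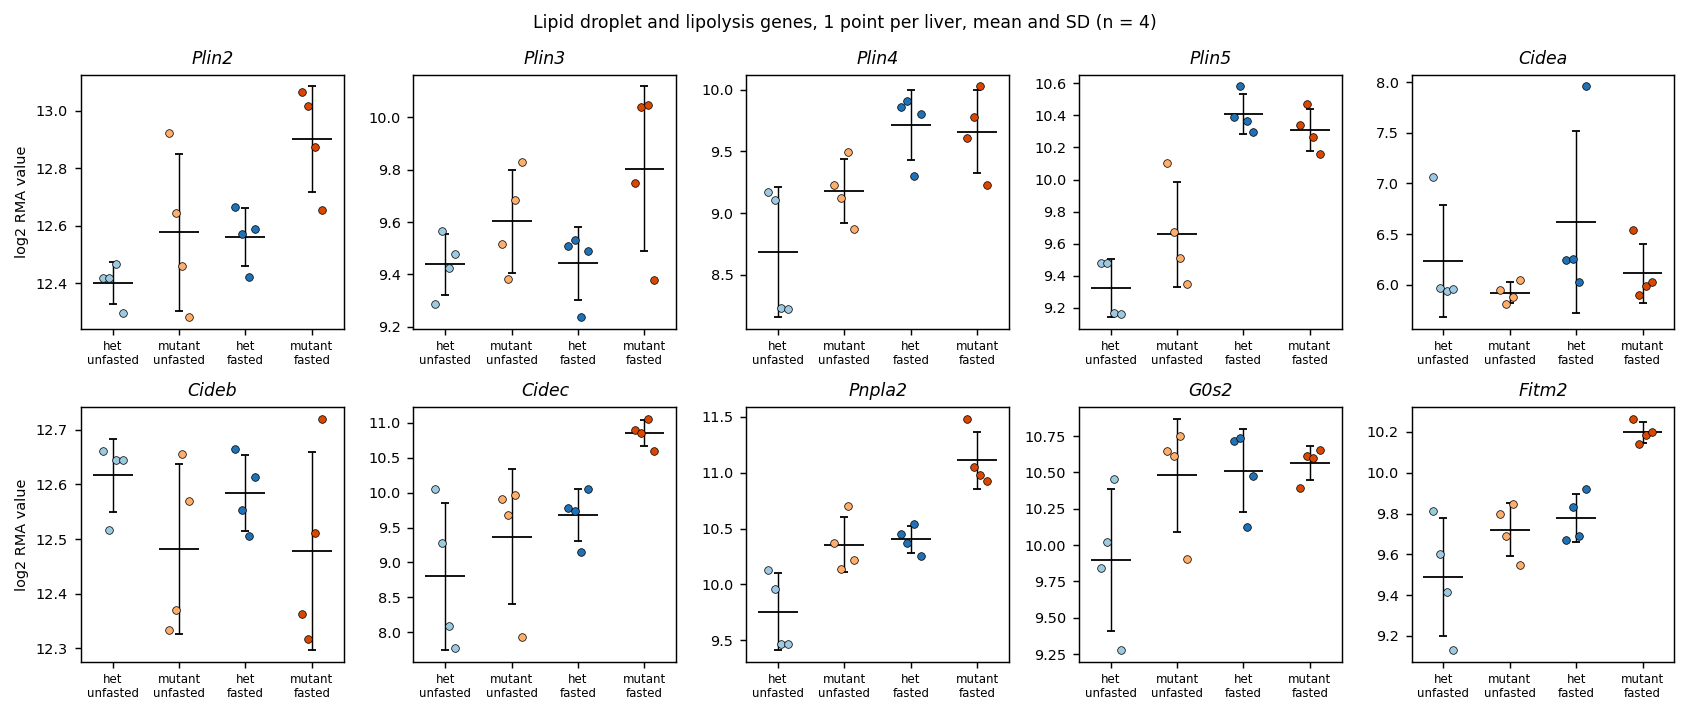
Log2 RMA values of the 10 genes in the 4 groups, 1 point per liver, with the group mean (long bar) and SD (error bar); each panel has its own axis, which does not start at 0. Fasted mutants lie above all other livers in Cidec, Pnpla2 and Fitm2, whereas in Plin5 both fasted groups lie above both unfasted groups.

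Pnpla2, the lipase that starts the breakdown of stored triglyceride, was called in 3 comparisons, more than any other of the 10 genes. Unfasted heterozygotes read 10.13, 9.96, 9.47 and 9.46 (9.76 ± 0.34) and unfasted mutants 10.37, 10.14, 10.70 and 10.22 (10.36 ± 0.25). Fasted heterozygotes read 10.45, 10.37, 10.54 and 10.26 (10.40 ± 0.12) and fasted mutants 11.48, 11.05, 10.98 and 10.93 (11.11 ± 0.25). The unfasted mutants and the fasted heterozygotes overlapped throughout, the unfasted heterozygotes lay below both, and the fasted mutants lay above both.

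The genotype difference in Pnpla2 was 0.60 ± 0.16 [0.26, 0.94], or 1.52-fold, without a fast (adjusted p = 0.033) and 0.71 ± 0.16 [0.36, 1.05], or 1.63-fold, with one (0.010). Fasting raised it by 0.75 ± 0.16 [0.41, 1.10], or 1.68-fold, in mutants (adjusted p = 0.022). In heterozygotes the fasting difference was 0.65 ± 0.16 [0.30, 0.99] without overlap of the groups, and its adjusted p was 0.060. It passed without replicate 1 of the unfasted heterozygotes (0.025), replicate 3 of the unfasted mutants (0.042) or replicate 1 of the fasted mutants (0.038). The interaction was 0.11 ± 0.23 [-0.38, 0.59] (adjusted p = 0.87), which leaves room for a difference of up to 0.59 between the fasting responses, and -0.02 without replicate 1 of the fasted mutants. The array with adipocyte transcripts was the highest fasted mutant, at 11.48. Without it the fasted genotype difference was 0.58 ± 0.16 (adjusted p = 0.033) and the fasting difference in mutants was 0.63 (0.044). The fasted genotype call held with each of the 16 arrays left out in turn (largest adjusted p = 0.035). The unfasted call was lost without replicate 1 (0.054) or 3 (0.10) of the unfasted mutants and without replicate 3 (0.12) or 4 (0.11) of the unfasted heterozygotes. The fasting call in mutants was lost without replicate 2 (0.062) or 4 (0.056) of the unfasted or replicate 2 (0.055) of the fasted mutants.

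G0s2, the small protein that binds Pnpla2 and blocks it, was not called. It read 9.84, 10.02, 10.46 and 9.28 in unfasted heterozygotes (9.90 ± 0.49), and its means in the other groups lay between 10.48 and 10.56. Unfasted mutants read 10.65, 10.62, 10.75 and 9.90, so that 3 arrays lay above all heterozygotes of that feeding state and 1 among them. The unfasted genotype difference was 0.58 ± 0.22 [0.12, 1.04] (adjusted p = 0.12), which passed without the low mutant array, replicate 4 (0.030). The fasting difference in heterozygotes was 0.61 ± 0.22 [0.15, 1.08] (0.21). In the fasted state the genotypes differed by 0.05 ± 0.22 [-0.41, 0.51] (adjusted p = 0.89), where Pnpla2 differed by 0.71. The G0s2 difference was 0.11 (0.795) without the array with adipocyte transcripts. Whether enzyme and inhibitor moved unequally was not tested.

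Fitm2, a protein of the endoplasmic reticulum needed for droplets to form and bud, was highest in fasted mutants, which read 10.26, 10.14, 10.19 and 10.20 (10.20 ± 0.05). Fasted heterozygotes read 9.67, 9.83, 9.69 and 9.92 (9.78 ± 0.12), unfasted mutants 9.80, 9.69, 9.85 and 9.55 (9.72 ± 0.13), and unfasted heterozygotes 9.81, 9.60, 9.41 and 9.13 (9.49 ± 0.29). The 4 fasted mutants lay within 0.12 of each other and above all 12 other arrays, while the other 3 groups overlapped. Fitm2 was 0.42 ± 0.11 [0.18, 0.66], or 1.34-fold, higher in fasted mutants than in fasted heterozygotes (adjusted p = 0.024) and 0.48 ± 0.11 [0.24, 0.72], or 1.39-fold, higher than in unfasted mutants (0.033). The size changed little without the array with adipocyte transcripts (0.40 against fasted heterozygotes), but the calls did not hold, with adjusted p = 0.059 in each case. The first call was also lost without replicate 1 (0.069) or 3 (0.063) of the fasted heterozygotes. The second was lost without any 1 of the fasted mutants (0.059 to 0.070) and without replicate 2 (0.077) or 4 (0.089) of the unfasted ones.

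Cidec, which channels lipid from small to large droplets and is strongly expressed in fatty liver, had the widest range of group means of the 10 genes (2.05) and was not called. Unfasted heterozygotes read 10.05, 9.28, 8.10 and 7.78 (8.80 ± 1.05) and unfasted mutants 9.91, 9.68, 9.97 and 7.93 (9.37 ± 0.97). Fasted heterozygotes read 9.78, 9.73, 9.15 and 10.05 (9.68 ± 0.38) and fasted mutants 10.89, 10.86, 11.05 and 10.60 (10.85 ± 0.19). The unfasted livers of each genotype spread over more than 2 log2 units, whereas the fasted mutants kept together above every other array. Fasted mutants exceeded fasted heterozygotes by 1.17 ± 0.46 [0.19, 2.15], or 2.25-fold (adjusted p = 0.10), and unfasted mutants by 1.48 ± 0.46 [0.50, 2.46], or 2.79-fold (0.084). The pooled SE carries the spread of the unfasted livers: with the 8 fasted arrays fitted alone, the fasted genotype difference had an adjusted p of 0.0030, and without replicate 4 of the unfasted mutants, the low array, it was 0.044. Without the array with adipocyte transcripts the fasted genotype difference was 1.16 (adjusted p = 0.164) and the fasting difference in mutants 1.47 (0.114).

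Cidea and Cideb did not follow Cidec. Cideb, which works in hepatocytes on the loading of very low density lipoprotein, read between 12.32 and 12.72 on all 16 arrays, and its group means spanned 0.14. Its genotype differences were -0.13 ± 0.09 unfasted and -0.11 ± 0.09 fasted (adjusted p = 0.41 and 0.42), the latter -0.07 without the array with adipocyte transcripts. Cidea, typical of brown adipocytes, read between 5.81 and 6.54 on 14 arrays, below the median of every array (7.33 at the lowest). It read 7.06 on replicate 1 of the unfasted heterozygotes and 7.96 on replicate 4 of the fasted heterozygotes. Ucp1 read 6.22 and 6.13 on those 2 arrays and 7.57 on the array with adipocyte transcripts. Each of the 2 arrays had the highest log2 summed adipocyte signal of its group, at 9.86 and 9.94. That sum was 9.88 to 10.05 in unfasted mutants and 11.17 on the array with adipocyte transcripts. The part of adipocytes in these 2 readings of Cidea was not tested. On the array with adipocyte transcripts Cidea read 6.54, the highest of the mutants. No comparison of Cidea passed (adjusted p from 0.33 to 0.89), and without that array its fasted genotype difference was -0.65 (0.267).

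**Figure D3:**
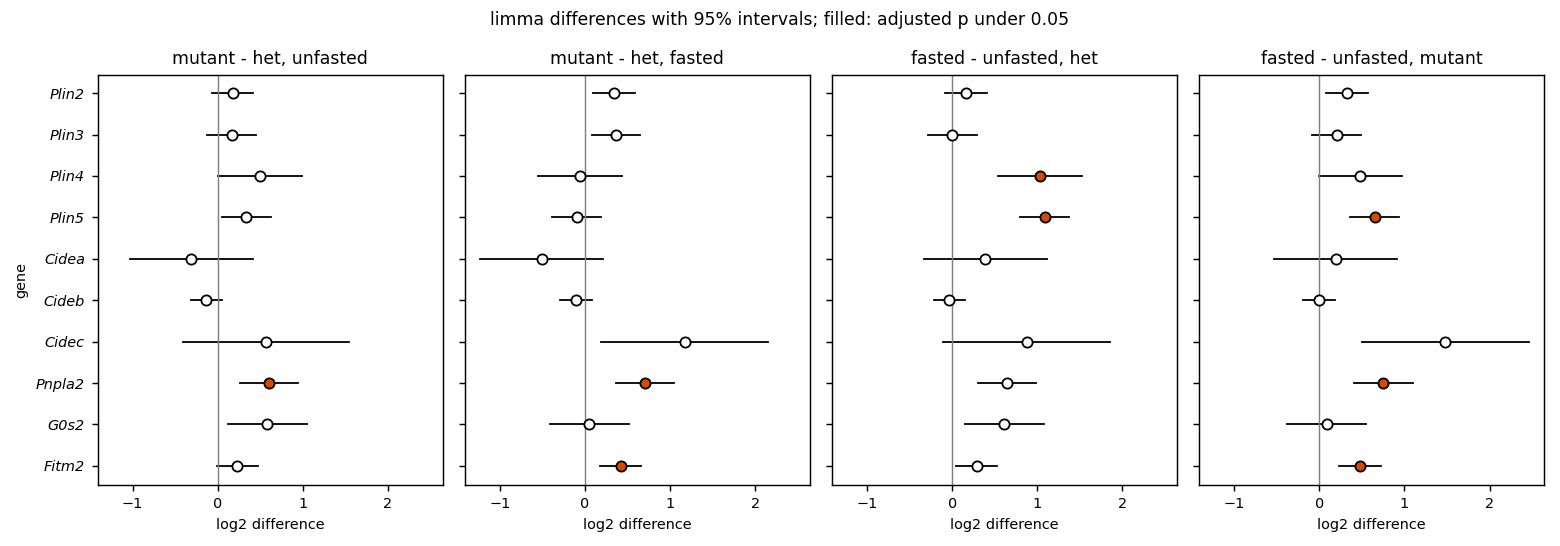
Log2 differences of the 10 genes in the 4 pairwise comparisons, with 95% confidence intervals from the fit of all 16 arrays; filled points passed the adjusted p of 0.05. Calls were Pnpla2 unfasted, Pnpla2 and Fitm2 fasted, Plin4 and Plin5 with fasting in heterozygotes, and Plin5, Pnpla2 and Fitm2 with fasting in mutants.

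Markers of other liver cells moved with genotype. Of 13 macrophage markers, 10 were called higher and none lower in fasted mutants than in fasted heterozygotes (8.62% and 5.01% of all genes). Their log2 summed signals were 13.30 to 13.71 against 12.51 to 13.04. None of the 13 was called by limma in unfasted livers (5 had an unadjusted p under 0.05, as did 21.8% of all genes). The sums there were 12.73 to 13.44 in mutants and 12.49 to 13.05 in heterozygotes. Of 11 stellate cell markers, 7 were called higher in unfasted mutants (sums of 13.31 to 13.55 against 12.99 to 13.13) and 3 in fasted mutants (13.17 to 13.41 against 12.95 to 13.10). Of all genes, 4.25% and 8.62% were called higher in these 2 comparisons. Some marker calls were lost with single arrays of the 16 left out. In unfasted mutants these were Lrat (with 12 arrays), Reln (3), Dcn (2) and Des (1). In fasted mutants they were Lrat (7) and Pdgfrb (2), and of the macrophage markers Cd5l (6), C1qb (5) and Adgre1 (4). Macrophages also hold lipid droplets and stellate cells store retinyl esters in them. The part of these cells in the higher Pnpla2, Fitm2 and Cidec of mutants was not tested. In bulk liver, more cells of a type and more RNA per cell cannot be told apart. Of the 7 adipocyte markers, Fabp4 was called higher in fasted mutants, at 1.09 ± 0.30 (adjusted p = 0.028), and at 0.64 without the array with adipocyte transcripts. The call was lost without replicate 1 (0.068), 2 (0.063) or 3 (0.054) of the fasted heterozygotes. Macrophages express Fabp4 as well.

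Within groups, several of the droplet genes were low on the same arrays, a pattern seen after the values were known. Replicates 3 and 4 of the unfasted heterozygotes were the lowest of the group in Plin4 (8.23 and 8.22), Plin5 (9.17 and 9.16), Cidec (8.10 and 7.78), Pnpla2 (9.47 and 9.46) and Fitm2 (9.41 and 9.13). The same 2 arrays were lowest in Angptl4, a secreted inhibitor of lipoprotein lipase (9.42 and 9.11, with the group's highest at 10.07), and in Cyp4a14, a fatty acid hydroxylase (11.94 and 9.70 against 12.85 and 13.18). They were highest in Srebf1, the regulator of fatty acid synthesis (10.96 and 10.82 against 10.68 and 10.45). G0s2 did not follow, since replicate 3 was the highest of the group at 10.46. Replicate 4 of the unfasted mutants was low in Cidec (7.93), G0s2 (9.90) and Angptl4 (9.73 against 10.25 to 10.46), and high in Srebf1 (10.21 against 9.31 to 9.50). The part of this shared variation in the differences between groups was not tested.

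**Figure D4:**
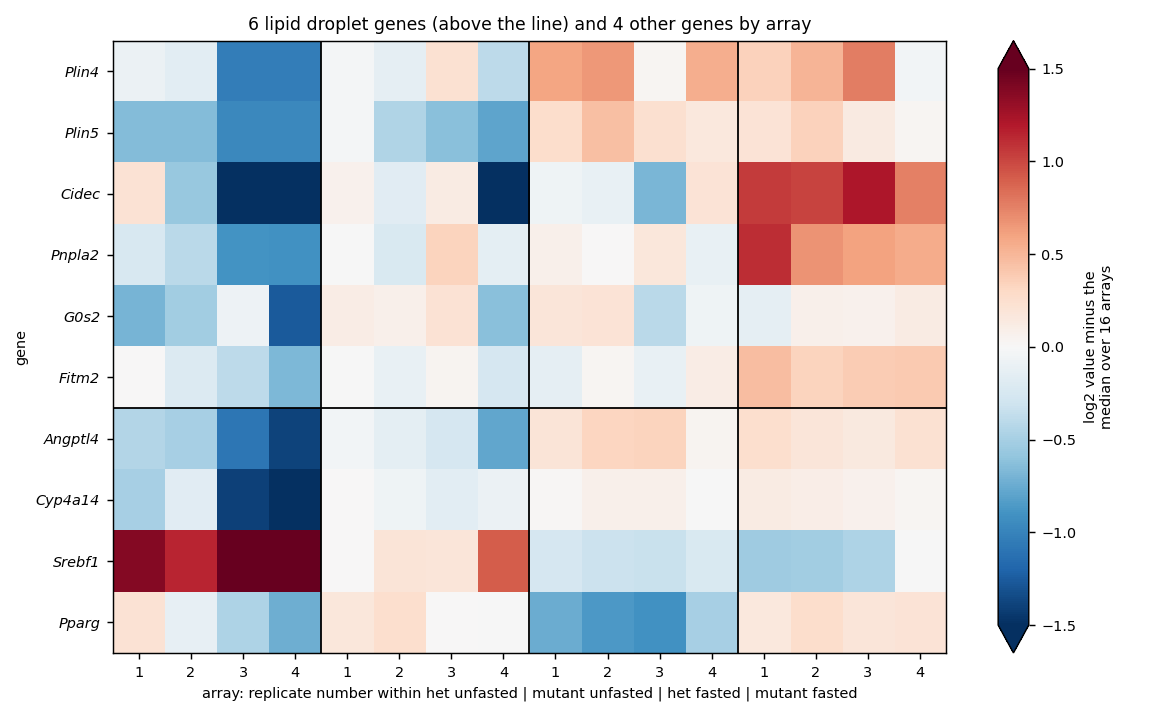
Heat map of 6 droplet genes (above the line) and 4 other genes on the 16 arrays, as log2 value minus the gene's median over the arrays, with colours capped at 1.5 in either direction. Replicates 3 and 4 of the unfasted heterozygotes are low in Plin4, Plin5, Cidec and Pnpla2, and replicate 4 of the unfasted mutants is low in Cidec (7.93) and G0s2 (9.90).

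For the 3 genes with the widest range of group means, the genes closest in pattern were found by the root mean square difference of their 16 centred log2 values. Nearest to Plin5 were Angptl4 (0.19), Slc22a5, the carnitine transporter (0.23), and Lbp, which binds bacterial lipopolysaccharide (0.24). All 3 were called with fasting in heterozygotes, as Plin5 was. Nearest to Pnpla2 were Tmtc2 (0.20), Nceh1, a hydrolase of cholesterol esters (0.21), and Serinc2 (0.22). Nceh1 was called in the same 3 comparisons as Pnpla2, and its group means ran from 10.52 in unfasted to 10.91 in fasted heterozygotes and from 11.09 in unfasted to 11.68 in fasted mutants. Nearest to Cidec were the acyl-CoA thioesterase Acot1 (0.46), Fabp7 (0.50) and Acot3 (0.54). Acot1 and Acot3 belong to a cluster of similar genes whose probes may share signal.

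The 18 other measured genes of droplet coats, biogenesis and growth moved in both directions. Ldah, a hydrolase on the droplet surface, was the sole call in unfasted mutants, where it was lower by -0.51 ± 0.10 (adjusted p = 0.0048). In fasted mutants 3 were higher and 2 lower than in fasted heterozygotes. Lpcat2, which makes phosphatidylcholine for the droplet surface, rose by 0.63 ± 0.15 (adjusted p = 0.010), and the droplet protein Mettl7b rose by 0.31 ± 0.07 (0.0087). Rab7, a small GTPase, passed at 0.18 ± 0.06 (0.042) but not with 9 of the 16 single arrays left out. Fitm1, the paralog of Fitm2, went the other way, at 8.69 to 10.30 in fasted mutants against 10.34 to 11.31 in fasted heterozygotes, a difference of -1.38 ± 0.32 (adjusted p = 0.0099). Mettl7a1 fell by 0.45 ± 0.10 (0.0079), and it also fell with fasting in mutants, by 0.56 ± 0.10 (0.0095). Dgat1, which makes triglyceride from diacylglycerol, rose with fasting in mutants by 0.50 ± 0.09 (0.0095). In heterozygotes the one call with fasting was Hsd17b11, a droplet dehydrogenase, at 0.39 ± 0.08 (0.030), which was lost with 6 of the 16 single arrays left out. The calls of Lpcat2, Mettl7b, Fitm1, Mettl7a1 and Dgat1 held with each of the 16 arrays left out in turn, the array with adipocyte transcripts included. No gene of this list was called in the interaction by limma, in which 3 of the 18 had an unadjusted p under 0.05, against 11.0% of all genes.

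Among the 12 other hydrolases of neutral lipid and their cofactor, the partners of Pnpla2 did not pass in any comparison. Abhd5, the activator of Pnpla2, differed by -0.16 unfasted and 0.04 fasted between genotypes, and by -0.23 and -0.02 with fasting in heterozygotes and mutants. Lipe, the hormone-sensitive lipase that acts next in the chain, gave 0.18, 0.22, 0.30 and 0.34 in the same order. Aadac, an esterase of the endoplasmic reticulum, was lower in fasted mutants than in fasted heterozygotes by -0.59 ± 0.11 (adjusted p = 0.0037) and fell with fasting in mutants by 0.46 ± 0.11 (0.035, lost with 5 of the 16 single arrays left out, among them the array with adipocyte transcripts at 0.062). Ces1g, a carboxylesterase, was higher in unfasted mutants by 0.41 ± 0.07 (0.0035) and fell with fasting in mutants by 0.41 ± 0.07 (0.0099). It belongs to a family of near-identical genes whose probes may share signal. No gene of this list was called with fasting in heterozygotes by limma, where 4 of the 12 had an unadjusted p under 0.05 (12.3% of all genes). None was called in the interaction either, where 2 of 12 had an unadjusted p under 0.05 (11.0% of all genes).

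Of 12 transcription factors and coactivators known to control these genes, Pparg, whose product drives Cidec in fatty liver, was higher in fasted mutants, at 10.50, 10.61, 10.53 and 10.55 against 9.60, 9.48, 9.43 and 9.85 in fasted heterozygotes. The groups were far apart, and the difference of 0.95 ± 0.15, or 1.94-fold, was called (adjusted p = 0.0012), also with any 1 array left out (largest adjusted p = 0.0056). Ppargc1a, the coactivator of PPAR-alpha, was higher in fasted mutants by 0.98 ± 0.26 (0.023) and rose with fasting in mutants by 1.33 ± 0.26 (0.015). The former call was lost with 4 of the 16 single arrays left out, among them the array with adipocyte transcripts (0.065). Srebf1 was lower in unfasted mutants by -1.10 ± 0.17 (0.0013), and it fell with fasting by 1.70 ± 0.17 in heterozygotes (8e-05) and by 0.70 ± 0.17 in mutants (0.032, lost with 5 of the 16 single arrays left out). Mlxipl, the carbohydrate-response factor, was lower in all 4 comparisons, by -0.42 ± 0.12 and -0.41 ± 0.12 between genotypes and by -0.71 ± 0.12 and -0.70 ± 0.12 with fasting. The genotype calls of Mlxipl were lost with 7 and 5 of the 16 single arrays left out. Creb3l3, a liver factor active in fasting, rose with fasting in mutants by 0.35 ± 0.07 (0.018), a call lost without replicate 3 of the fasted mutants (0.050). Ppara itself was not called in any comparison. No regulator was called in the interaction by limma, where 2 of 12 had an unadjusted p under 0.05, against 11.0% of all genes.

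**Figure D5:**
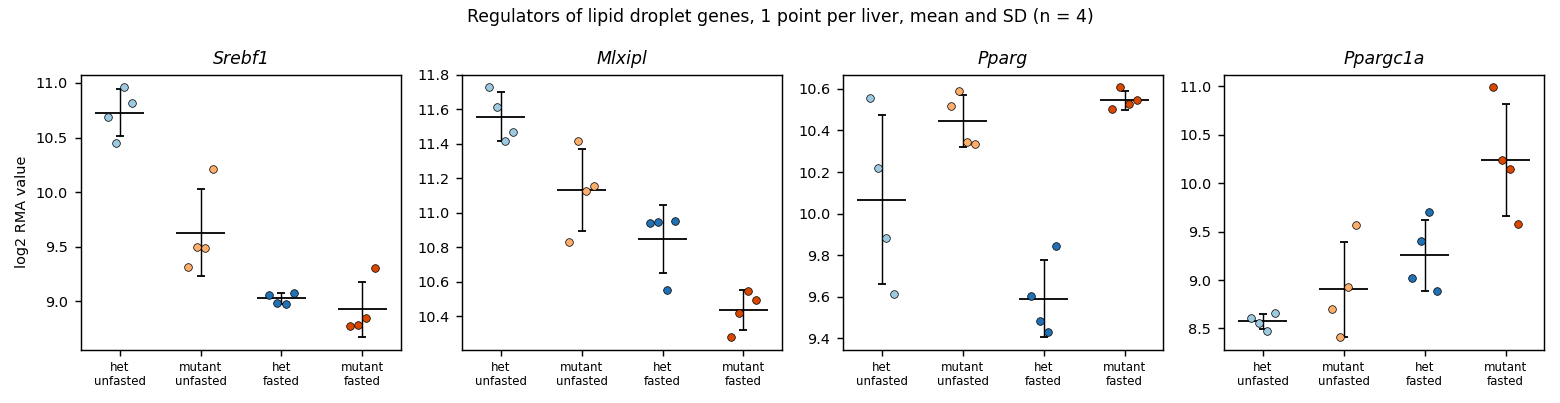
Log2 RMA values of Srebf1, Mlxipl, Pparg and Ppargc1a in the 4 groups, 1 point per liver, with mean and SD; axes differ between panels and do not start at 0. Pparg is at 10.50 to 10.61 in the fasted mutants and at 9.43 to 9.85 in the fasted heterozygotes.

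Of 16 other PPAR-alpha targets of the fasted liver, 7 were called higher in unfasted mutants and 7 with fasting in heterozygotes. Another 3 calls were higher in fasted mutants and 3 with fasting in mutants. Over all genes, 4.25%, 0.732%, 8.62% and 2.33% were called higher in the same order. None of the 16 was called lower in these 4 comparisons, though the mean of Fgf21 fell with fasting in mutants, from 9.73 to 8.97 (adjusted p = 0.074). Ehhadh, an enzyme of peroxisomal oxidation, was called in all 4, at 0.66 ± 0.15 and 0.57 ± 0.15 between genotypes, unfasted and fasted, and at 0.79 ± 0.15 and 0.70 ± 0.15 with fasting in heterozygotes and mutants. The Ehhadh calls were lost without replicate 3 of the unfasted heterozygotes (unfasted genotype, 0.052), replicate 1 of the fasted mutants or of the fasted heterozygotes (fasted genotype, 0.054 and 0.051), and replicate 2 of the fasted mutants (fasting in mutants, 0.055). Angptl4, nearest to Plin5 in pattern, rose with fasting in heterozygotes by 1.08 ± 0.18 (adjusted p = 0.0088). Pdk4, which slows glucose oxidation, was higher in mutants by 2.17 ± 0.39 without a fast (0.0036) and by 1.65 ± 0.39 with one (0.011). The median of the 16 differences was 0.52 in unfasted and 0.16 in fasted mutants, and 0.52 and 0.31 with fasting in heterozygotes and mutants. None of the 16 was called in the interaction by limma, where 4 had an unadjusted p under 0.05 (11.0% of all genes), all with the lower fasting difference in mutants.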

How the data were processed

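The authors deposited 1 table of log2 values, made with Affymetrix Expression Console and RMA per the submitters' processing notes. Its versions, genome build and filters are not given in the sources used here. It holds 35556 probe sets without detection calls. Probe sets were named from the platform annotation: 21789 had 1 symbol, 1621 had several and 12146 were not listed. Symbols were updated through a RefSeq gene table (GRCm38.p6). Of 19938 genes, 999 had several probe sets, of which the one with the highest mean was used. limma 3.58.1 in R 4.3.3 fitted 1 mean per group over 16 arrays, with an intensity trend, two-sided tests and Benjamini-Hochberg adjustment over all genes, and was tested on simulated data. Genes named besides the 10 were Mmut, up to 4 called genes with the largest change per list and comparison, and the 3 nearest genes of 3 members; others were chosen after their values were seen. The number of arrays limits the precision. The genes and lists were chosen with earlier results of these data known. Ldaf1, Acsl3, Spart, Tf, Cfd, Adrb3 and Pnlip were not analysed here. Of 9 acinar markers, 0 were called by limma in any comparison, and 0 had an unadjusted p under 0.05. Their median difference in unfasted genotype was 1.19. The acinar signal sat on 1 array, replicate 1 of the unfasted mutants, which widened the spread of that group (SD 2.61 for Cpa1). A test of group means could therefore not register it. Alternatives were a replicate block, other fits, scalings, filters and thresholds, and leaving out arrays, which included both mutant arrays with transcripts of other tissues, a choice made after seeing the data.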

Additional observations from a re-analysis of the deposited data

Results flagged for a closer look

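In 16 of the 88 sets of 4 arrays examined (6 of 40 for the 10 droplet genes) 1 array stood apart from the other 3 by Dixon's gap ratio at 95%. Chance gives about 1 in 20 for independent sets. The sets here share arrays, and some of the other genes were chosen after their values were seen. The counts therefore cannot be weighed against that rate. Among the droplet genes, Cidea read 7.06 on replicate 1 of the unfasted heterozygotes (others 5.94 to 5.97) and 7.96 on replicate 4 of the fasted heterozygotes (6.02 to 6.25). Plin3 read 9.24 on replicate 3 of the fasted heterozygotes (9.49 to 9.53), and Cideb read 12.52 on replicate 2 of the unfasted heterozygotes (12.64 to 12.66). Replicate 4 of the unfasted mutants was low in both Cidec, at 7.93 (9.68 to 9.97), and G0s2, at 9.90 (10.62 to 10.75). Of the other genes, replicate 1 of the fasted mutants stood apart in Ucp1 (7.57), Adipoq (6.43), Retn (7.94), Plin1 (8.12) and Slc2a4 (7.59), and replicate 1 of the unfasted mutants in Cpa1 (12.29). The remaining flags were Mmut at 9.66 and Plin1 at 7.71 in unfasted heterozygotes, Srebf1 at 9.30 in fasted mutants and Retn at 7.08 in unfasted mutants.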

How the results depend on the processing

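No called difference changed sign under any alternative; 24 of the 1385 recomputed values of the 10 genes did, all of them uncalled and of a size up to 0.39. With only the arrays compared in the fit, the droplet genes called numbered 0 in unfasted genotype, 4 in fasted genotype, 1 with fasting in heterozygotes and 0 with fasting in mutants (main 1, 2, 2 and 3). At an adjusted p of 0.01 they numbered 0, 0, 1 and 0. A minimum of 1.5-fold left 1, 1, 2 and 2. Leaving out both mutant arrays with transcripts of other tissues gave 1, 1, 3 and 4. Fitm2 was then lost in fasted genotype (0.0585). Pnpla2 was added with fasting in heterozygotes (0.0447) and Plin2 with fasting in mutants (0.030). With arrays left out singly the ranges were 0 to 2, 1 to 4, 1 to 3, 0 to 4 and, in the interaction, 0 to 0. Over all genes, calls in the 4 comparisons numbered 1584, 2716, 313 and 667. With only the arrays compared they were 764 in unfasted genotype, 3026 in fasted genotype, 568 with fasting in heterozygotes and 33 in mutants. At 0.01 they were 461, 993, 73 and 79, and with the fold minimum 408, 606, 132 and 119. Array weights gave 1029 with fasting in heterozygotes, and leaving out both of those mutant arrays gave 2166 with fasting in mutants. Single arrays left out gave 698 to 1781, 1575 to 3180, 155 to 358, 224 to 1941 and, in the interaction, 0 to 6. The interaction's 2 genes became 1 with array weights or median-centred arrays and 0 with robust moderation, only bright genes, the 0.01 threshold or without both of those mutant arrays. Scaling moved the balance of directions over all genes. In the main fit 848 were higher and 736 lower in unfasted, 1718 and 998 in fasted mutants, and 464 and 203 with fasting in mutants. With median-centred arrays they were 643 and 1233 unfasted and 1510 and 1973 fasted. After a second quantile normalization they were 1431 and 1281 fasted and 290 and 215 with fasting in mutants. A stricter rule lowers counts by construction; the causes of the other changes were not tested.

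Replicate numbers were not taken to pair the arrays in the main fit, since not every same-numbered pair passed 0.1. Same-numbered arrays correlated at -0.12 to 0.252 in their deviations from group means (median 0.0655, 9 of 24 over 0.1). Other-numbered arrays correlated at -0.346 to 0.329 (median -0.0318, 9 of 72 over 0.1), and 6 of 16 arrays correlated best with their own number. Values over 0.1 were thus more frequent among same-numbered arrays, and the rule does not settle whether the arrays were paired. With the replicate block, 2 droplet genes were called in unfasted genotype (Plin5 added, adjusted p = 0.049), Plin2 was added in fasted genotype (0.020) and Pnpla2 with fasting in heterozygotes (0.037). A second quantile normalization added Plin2 in fasted genotype (0.037) and took Fitm2 with fasting in mutants (0.061). With no detection calls, a change of a dim gene such as Cidea may be understated.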
